A study of Mus musculus with 10 samples.

Results

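The basement membranes of the glomerulus and the tubule were examined through 10 genes: the collagen IV chains Col4a1, Col4a2, Col4a3, Col4a4 and Col4a5, the laminin chains Lama5, Lamb2 and Lamc1, the linker Nid1 and the proteoglycan Hspg2. They were taken by gene symbol from a table of 13299 genes, in which all 10 were present, and all 10 passed the filter on low values that 13236 genes passed. To ask how chronic, mild activation of nutrient signaling alters the aged organ, the study compared 5 whole-kidney samples of Rragc S74N/+ mice with 5 of Rragc +/+ mice by 3′ mRNA sequencing. Rragc encodes RagC, a small GTPase that relays nutrient sufficiency to mTORC1. The S74N allele, made by CRISPR knock-in on a C57BL/6 background, gives a GDP-bound, active RagC in every cell that expresses the gene, and 1 copy was carried beside 1 normal copy. Mice of both groups were 1.5 years old, no other allele or agent was named for either group, and the labels called both groups whole tissue. The labels gave no sex for these animals, and sex-linked transcripts were read only as a check. Of the 5 listed, 4 were in the table, and 0 of 4 differed between the groups (limma, adjusted p under 0.05, and 0 of 4 at an unadjusted p under 0.05). These 4, Ddx3y, Uty, Kdm5d and Eif2s3y, are Y-linked and were present in all 10 samples. Their lowest value was 26.9 normalized counts (Eif2s3y, in a Rragc +/+ sample). Xist was not in the table.

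A basement membrane is a thin sheet of extracellular matrix under epithelia and endothelia. Collagen IV and laminin form separate polymers in it, and nidogen and perlecan join the 2 networks. Collagen IV chains assemble as trimers, α1α1α2 in nearly all basement membranes and α3α4α5 in the mature glomerular basement membrane, where podocytes make the α3, α4 and α5 chains. Laminin-521, built of the α5, β2 and γ1 chains, is the main laminin of the mature glomerular basement membrane. Mutations of COL4A3, COL4A4 or COL4A5 cause Alport syndrome, and those of LAMB2 cause Pierson syndrome, both diseases of the glomerular filter.

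Each value below is a normalized count, the number of reads of a gene divided by a size factor of its sample. The libraries held 4488493 to 5797251 reads, and the members had on average 57.7 (Col4a5) to 1751 (Col4a4) reads per sample, so that counting alone gives a coefficient of variation of 13.2% for Col4a5 and 2.39% for Col4a4. Reads came from the 3′ end of each mRNA, levels were therefore not divided by length, and levels of different genes were not ranked against each other. Rragc itself ranged from 90.1 to 204 normalized counts over the 10 samples and differed by -0.22 ± 0.20 (log2, SE) between the genotypes (limma adjusted p = 0.51). Such counts do not show which allele was read and do not check the genotype. In whole kidney, fewer cells of a type and less RNA per cell cannot be told apart.

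None of the 10 genes passed the threshold between the genotypes in limma, a count near the share of all genes that did, and the intervals of several members were wide. At an adjusted p under 0.05 (limma on log2 of the normalized count plus 1, adjusted over all 13236 genes), 0 of the 10 members differed, where 6.03% of all tested genes did (3.45% higher and 2.58% lower in Rragc S74N/+ kidneys). At an unadjusted p under 0.05, 1 member, Nid1, stood against 25.4% of all tested genes. Count models on the recovered reads of all 10 samples called 0 members with edgeR and 1 with DESeq2, beside 6.3% and 10.4% of all genes. On 8 samples both called 1, beside 6.43% and 10.6%, and the member called was Nid1 each time. The log2 fold changes, Rragc S74N/+ minus Rragc +/+, ran from -0.36 for Hspg2 to 0.44 for Nid1, with 6 above 0 and 4 below. Their median was 0.04, beside -0.01 over all tested genes. For 9 of the 10 the 95% confidence interval contained 0, and for 5 the fold change was within 0.1 of 0. The plot of fold changes with their intervals gives the precision behind these counts.

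**Figure D1:**
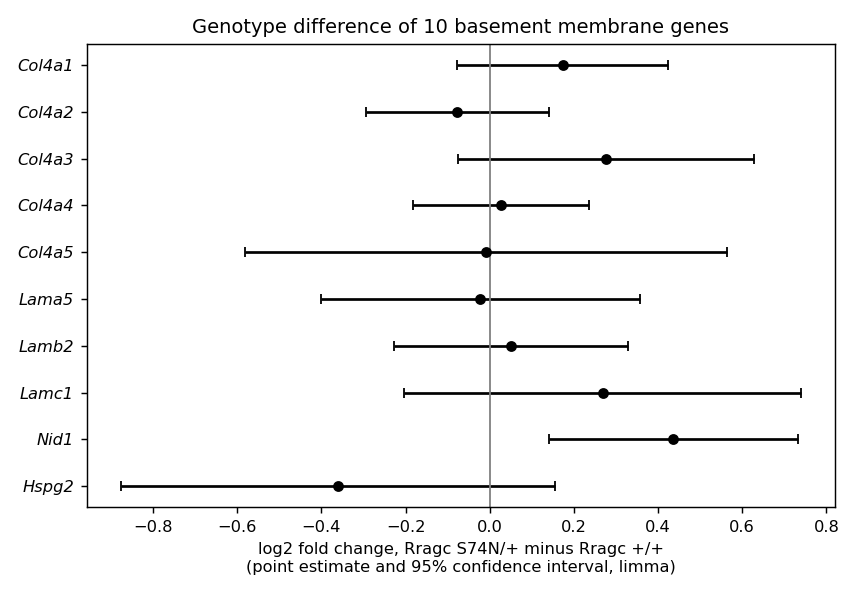
Log2 fold change of the 10 basement membrane genes on the horizontal axis, Rragc S74N/+ minus Rragc +/+ (5 samples each), with points for the limma estimate and bars for its 95% confidence interval. The interval of Nid1, from 0.14 to 0.73, lies above 0, and the other 9 cross it, the widest being those of Col4a5 (-0.58 to 0.56) and Hspg2 (-0.88 to 0.16).

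Nid1 encodes nidogen-1, which binds both the laminin γ1 chain and collagen IV and so bridges the laminin and collagen networks. It had 226, 195, 165, 224 and 238 normalized counts in Rragc +/+ replicates 1 to 5. In Rragc S74N/+ replicates 1 to 5 it had 319, 267, 239, 256 and 340.04. All 5 Rragc S74N/+ samples were above the highest Rragc +/+ sample, but the gap between the groups was small, from 237.8 to 238.9. Its mean was 209.6 ± 29.5 against 284 ± 43.3 (SD, n = 5 per group), Rragc +/+ first. This is a fold of 1.35 (95% confidence interval 1.10 to 1.66), or 0.44 ± 0.14 (SE) on the log2 scale. The difference did not pass the threshold over all genes (limma adjusted p = 0.073), and by its p Nid1 ranked 1187 of 13236 genes. An exact two-sided permutation test of its normalized counts gave p = 0.00794, the smallest that the 252 allocations of 5 against 5 samples allow. That p is not adjusted for the 10 members examined. Groups without overlap were found in 8.16% of all tested genes, and in 4.15% with Rragc S74N/+ as the higher group.

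Whether Nid1 passed depended on the scaling and the model, while its direction did not. DESeq2 on 10 samples gave 0.44 (adjusted p = 0.042) and edgeR 0.45 (adjusted p = 0.064). With library totals made equal, the median over all genes moved from -0.01 to 0.06, and the Nid1 difference was 0.51 and passed (limma adjusted p = 0.031). With each sample left out in turn it lay between 0.35 and 0.49, with limma adjusted p from 0.054 to 0.16.

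The letters before the Nid1 start are shown because Nid1 was the member nearest to the threshold. They are the 199 bases before both annotated starts, chr13:13437352-13437550 on the + strand of GRCm38.p6, read from the RefSeq promoter table (the reads had been aligned to another build, GRCm39). Capitals mark a CCAAT box read on the other strand (ATTGG) and a GC box (GGGCGG).
Nid1 upstream: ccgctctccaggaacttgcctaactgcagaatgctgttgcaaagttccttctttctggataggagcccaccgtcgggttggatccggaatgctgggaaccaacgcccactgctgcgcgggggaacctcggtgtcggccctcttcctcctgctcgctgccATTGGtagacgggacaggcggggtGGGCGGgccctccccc
In the 250 bases before the start, the table held 8 of the 10 members (Col4a3 and Lamc1 are named only). Searched on both strands, GGGCGG was found in 5 of the 8 (Nid1, Col4a2, Col4a5, Lama5 and Hspg2), beside 32.7% of 32851 promoter windows of that length. CCAAT was found in 4 of the 8 (Nid1, Col4a1, Col4a2 and Col4a5), beside 33.8% of windows. TATAAA was found in 0 of the 8 members (12.4% of windows), and so was CACGTG, the E-box inside the CLEAR element that TFEB binds (6.02% of windows). No motif is contained in another, and a match is a description of the sequence only.

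**Figure D2:**
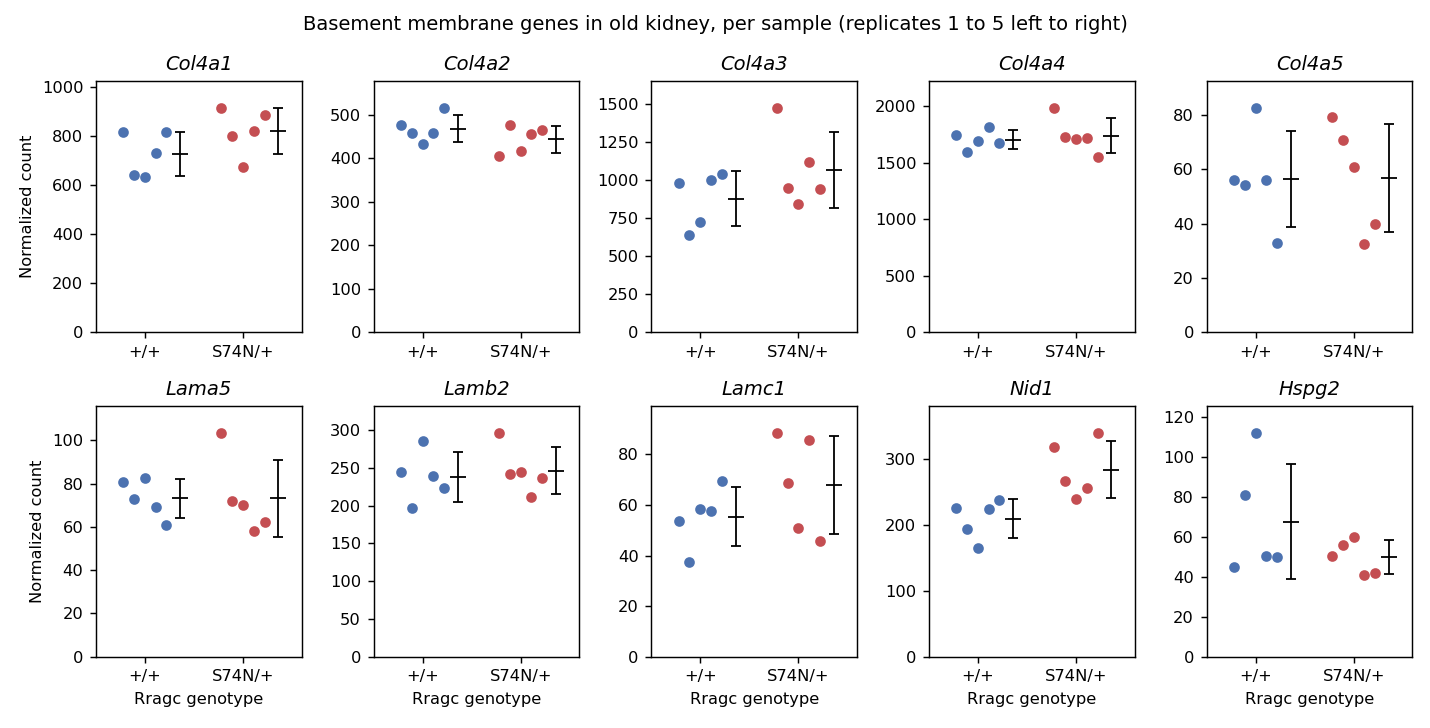
Normalized counts (vertical axis, from 0) of the 10 genes in each sample, with Rragc +/+ in blue and Rragc S74N/+ in red, replicates 1 to 5 from left to right, and a bar for the mean ± SD of each group. The 2 groups are apart in the panel of Nid1 alone, with 165 to 238 against 239 to 340.04 normalized counts, and Rragc S74N/+ replicate 1 is the highest point of all 10 samples in 6 panels.

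The chains of the ubiquitous collagen IV network, Col4a1 and Col4a2, lie head to head on chromosome 8, and their annotated starts overlap by 22 bases. Col4a1 encodes the α1 chain, present in 2 copies in the α1α1α2 trimer. Col4a1 had 813, 639.8, 632, 727 and 815 normalized counts in Rragc +/+ replicates 1 to 5 and 913, 799.6, 672, 819 and 884 in the Rragc S74N/+ replicates. The groups overlapped, with 3 of 5 Rragc S74N/+ samples above the highest Rragc +/+ sample. The mean was 725 ± 89.2 against 817 ± 93.7 (SD, n = 5 per group). On the log2 scale the difference was 0.17 ± 0.12 (SE, limma adjusted p = 0.38, exact permutation p = 0.13).

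Col4a2 encodes the α2 chain. It measured 477, 459, 433, 459 and 516 normalized counts in Rragc +/+ replicates 1 to 5 and 406, 478, 417, 457 and 464 in the Rragc S74N/+ replicates. Here 0 of 5 Rragc S74N/+ samples were above the highest Rragc +/+ sample and 2 were below the lowest. The log2 fold change was -0.08 ± 0.10 (SE), with a 95% confidence interval from -0.29 to 0.14 (limma adjusted p = 0.68), that is, between 0.82 and 1.10 of the Rragc +/+ level. With equal library totals it was 0.00, so Col4a2 had no direction that held across the scalings tried.

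Because both chains enter 1 trimer, their ratio was taken within each sample, which removes the scaling of the sample. The ratio of Col4a1 to Col4a2 was one of 8 pair ratios compared. Its mean log2 value was 0.62 ± 0.11 in the Rragc +/+ group and 0.87 ± 0.19 in the Rragc S74N/+ group (SD, n = 5 each). The difference was 0.25 (exact permutation p = 0.032, adjusted p = 0.25 over the 8 pairs). The groups overlapped, with 3 of 5 Rragc S74N/+ samples above the highest Rragc +/+ sample. Without Rragc S74N/+ replicate 1 the difference was 0.18. Over the 8 pairs, 0 passed after adjustment and 1, this one, at an unadjusted p under 0.05.

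**Figure D3:**
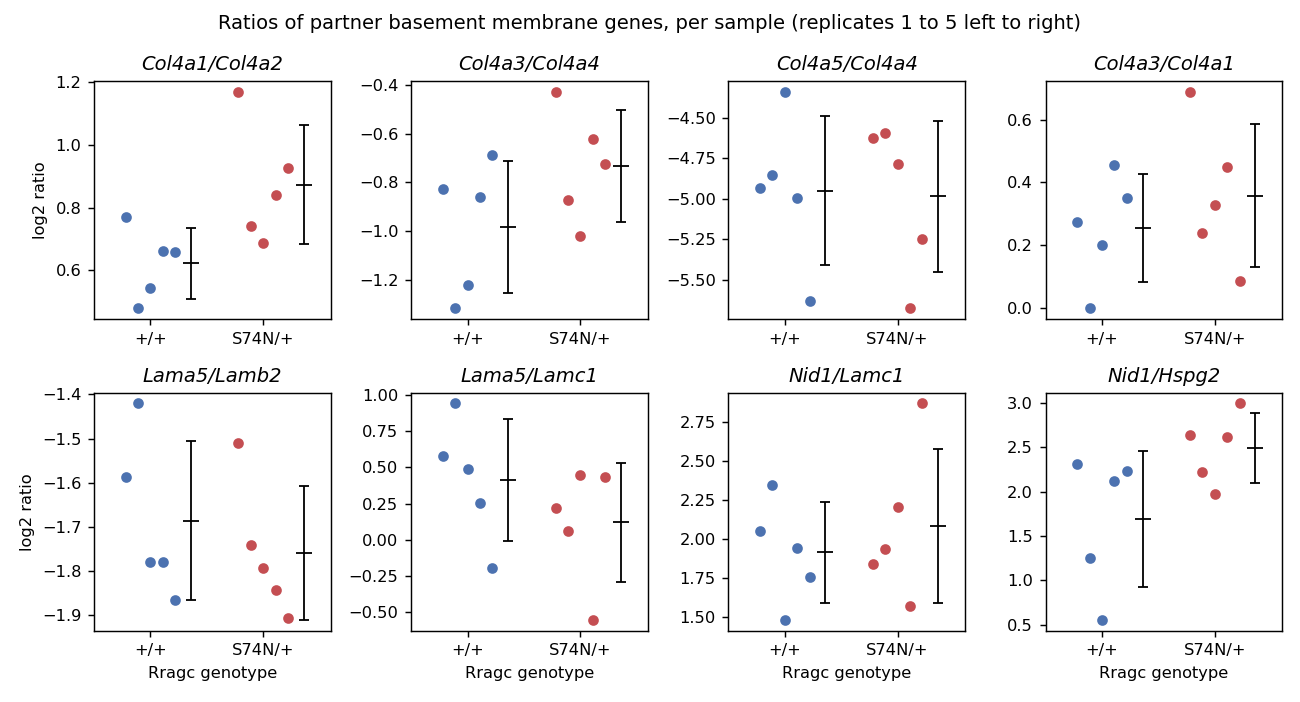
Log2 ratio of the normalized counts (plus 1) of partner genes in each sample, 1 panel per pair, with Rragc +/+ in blue, Rragc S74N/+ in red, replicates 1 to 5 from left to right and a bar for mean ± SD; the vertical axes do not start at 0 and differ between panels. The Col4a1/Col4a2 ratio averages 0.62 against 0.87 and Nid1/Hspg2 1.69 against 2.49, and the groups overlap in all 8 panels.

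The chains of the glomerular network gave wide comparisons for Col4a3 and Col4a5 and a narrow one for Col4a4. Col4a3 encodes the α3 chain. It had 982, 639, 726, 998 and 1039 normalized counts in Rragc +/+ replicates 1 to 5 and 1472, 944, 843, 1117 and 939 in the Rragc S74N/+ replicates. The highest value of all, in Rragc S74N/+ replicate 1, was above every other sample, and the remaining values overlapped. The log2 fold change was 0.28 ± 0.17 (SE, 95% confidence interval -0.08 to 0.63, limma adjusted p = 0.31, exact permutation p = 0.22). Without Rragc S74N/+ replicate 1 it was 0.15.

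Col4a4, its neighbour on chromosome 1, encodes the α4 chain of the same trimer. Its values in Rragc +/+ replicates 1 to 5 were 1743, 1592, 1691, 1812 and 1674 normalized counts. Those in the Rragc S74N/+ replicates were 1983, 1729, 1712, 1718 and 1549.6. The Rragc S74N/+ values lay on both sides of the Rragc +/+ range. Col4a4 was the best measured member, with a spread of 4.81% among Rragc +/+ and 8.93% among Rragc S74N/+ samples. Its log2 fold change of 0.03 ± 0.10 (SE) had a 95% confidence interval from -0.18 to 0.24, which corresponds to 0.88 to 1.18 of the Rragc +/+ level (limma adjusted p = 0.90). It was -0.02 without Rragc S74N/+ replicate 1.

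Col4a3 and Col4a4 are transcribed away from each other, and the 71 bases between their starts are shown because both genes share them as upstream sequence. The stretch is chr1:82586850-82586920, printed on the - strand of GRCm38.p6 from RefSeq, 5′ to 3′ toward Col4a4, all in lower case since none of the 4 motifs above occurs in it on either strand. In windows of 71 bases, GGGCGG was found in 20.7%, CCAAT in 13.3%, TATAAA in 4.41% and CACGTG in 2.38% of 32851 promoters.
Col4a3/Col4a4: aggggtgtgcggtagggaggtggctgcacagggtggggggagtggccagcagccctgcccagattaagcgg
The spread of Col4a3 among Rragc +/+ kidneys was 20.7%, against 4.81% for Col4a4. The Col4a3/Col4a4 log2 ratio averaged -0.98 ± 0.27 in the Rragc +/+ group and -0.73 ± 0.23 in the Rragc S74N/+ group (SD, n = 5 each), which differ by 0.25 (exact permutation p = 0.16, adjusted p = 0.42).

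Col4a5 encodes the α5 chain and lies on the X chromosome head to head with Col4a6, with 1308 bases between the starts. Col4a6 was not in the table of genes, so it has no value here. Col4a5 had few reads: 55.9, 54.1, 82.6, 55.9 and 32.8 normalized counts in Rragc +/+ replicates 1 to 5 and 79.3, 70.8, 60.99, 32.6 and 39.8 in the Rragc S74N/+ replicates. The spread within each group, 31.4% and 35.2%, exceeded that of counting (13.2%). On the log2 scale the difference, -0.01 ± 0.27 (SE, limma adjusted p = 0.99), had a 95% confidence interval from -0.58 to 0.56, which corresponds to 0.67 to 1.48 of the Rragc +/+ level. Its sign changed with the scaling, to 0.07 with equal library totals. Relative to Col4a4 its log2 ratio differed by -0.04 (exact permutation p = 0.91, adjusted p = 0.91), and Col4a3 relative to Col4a1, the glomerular against the ubiquitous network, differed by 0.10 (exact permutation p = 0.45, adjusted p = 0.66).

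The chains of laminin-521 also overlapped between the genotypes. Lama5 encodes the α5 chain, the arm through which laminin binds integrins and dystroglycan on the cell. It had 80.5, 72.8, 82.6, 68.99 and 60.7 normalized counts in Rragc +/+ replicates 1 to 5 and 103.5, 71.7, 69.98, 58.1 and 62.2 in the Rragc S74N/+ replicates. The means were the same, 73.1 ± 8.89 and 73.1 ± 17.9 (SD, n = 5 per group), and the 95% confidence interval of the log2 fold change ran from -0.40 to 0.36 (limma adjusted p = 0.96). Its sign, -0.02, changed with equal library totals (0.06).

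Lamb2, the β2 chain that replaces β1 as the glomerulus matures, had 244, 197, 286, 239 and 224 normalized counts in Rragc +/+ replicates 1 to 5. In the Rragc S74N/+ replicates it had 297, 242, 245, 211 and 236. Apart from Rragc S74N/+ replicate 1, every Rragc S74N/+ value lay inside the Rragc +/+ range. The log2 fold change was 0.05 ± 0.13 (SE, 95% confidence interval -0.23 to 0.33, limma adjusted p = 0.85).

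Lamc1 encodes the γ1 chain, shared by most laminins and the one that nidogen binds. It had 53.7, 37.5, 58.6, 57.6 and 69.6 normalized counts in Rragc +/+ replicates 1 to 5 and 88.6, 68.8, 50.99, 85.6 and 45.7 in the Rragc S74N/+ replicates. The Rragc S74N/+ samples were spread over a wider range, with 2 of 5 above the highest Rragc +/+ sample, and the log2 fold change was 0.27 ± 0.22 (SE, 95% confidence interval -0.20 to 0.74, limma adjusted p = 0.47). It was 0.14 without Rragc +/+ replicate 2. Leaving out Rragc S74N/+ replicate 1 or 4 gave 0.16 or 0.17. The ratios among the chains did not pass: Lama5/Lamb2 differed by -0.07 (exact permutation p = 0.52, adjusted p = 0.66) and Lama5/Lamc1 by -0.29 (exact permutation p = 0.30, adjusted p = 0.60) on the log2 scale. The latter was -0.12 without Rragc S74N/+ replicate 4. Leaving out Rragc +/+ replicate 2 or 5 gave -0.16 or -0.44. For Nid1 against its binding partner Lamc1 the difference was 0.17 (exact permutation p = 0.58, adjusted p = 0.66).

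Hspg2 encodes perlecan, a large heparan sulfate proteoglycan of the basement membrane. Its normalized counts were 44.7, 81.1, 112, 50.7 and 49.7 in Rragc +/+ replicates 1 to 5 and 50.4, 56.2, 59.99, 40.7 and 41.8 in the Rragc S74N/+ replicates. Rragc +/+ replicates 2 and 3 were high and the other 8 samples lay close together. The spread was 42.5% in Rragc +/+ and 17.1% in Rragc S74N/+ kidneys, where counting gives 12.9%. Its fold change of -0.36 ± 0.24 (log2, SE) was the lowest of the members and did not pass (limma adjusted p = 0.37, exact permutation p = 0.28). Without Rragc +/+ replicate 3 it was -0.16. The Nid1/Hspg2 log2 ratio averaged 1.69 ± 0.77 in the Rragc +/+ group and 2.49 ± 0.40 in the Rragc S74N/+ group (SD, n = 5 each, difference 0.80, exact permutation p = 0.071, adjusted p = 0.29). Without Rragc +/+ replicate 3 that difference was 0.51.

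Rragc S74N/+ replicate 1 stood apart for these genes, though not for them alone. It was the highest of all 10 samples in 6 of the 10 members and the highest of its group in 7. Outside the members it was the highest in Lama4 (152), Plat (185) and Pdgfra (283) and the lowest in Umod (1005) and Sdc4 (791). In Col1a1 and Fn1 the highest sample was Rragc S74N/+ replicate 5. The Dixon search of members and ratios, given below, flagged 0 groups. The summed normalized count of the members was 5711 in Rragc S74N/+ replicate 1, against 3966 to 4795 in the other 9 samples. Its members lay on average 0.31 (log2) above their means. Without it, 4 of 10 fold changes were above 0, in place of 6, and the median was -0.02 in place of 0.04. The sample titles carry numbers that fall under 200 for 3 samples of each genotype and over 200 for 2 of each, which the labels do not explain. Within the samples under 200, which include that replicate, 8 of 10 members had fold changes above 0, and within those over 200, 3 of 10 did. Nid1 was higher in both (0.49 and 0.35) and Col4a1 too (0.19 and 0.14), Hspg2 and Col4a2 were lower in both (-0.42 and -0.28 for Hspg2, -0.08 in each for Col4a2), and Col4a3 was 0.45 in the one and 0.01 in the other. No member passed the threshold within either range (limma).

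Other structural components of basement membranes were read from a list of 30 genes, of which 26 were in the table. At an adjusted p under 0.05 (limma) 0 of the 26 passed, beside 6.03% of all tested genes. At an unadjusted p under 0.05, 12 of the 26 did, beside 25.4% of all tested genes. Of the 26, 21 had fold changes above 0, and their median was 0.32, beside -0.01 over all tested genes. The list's count was not stable: edgeR called 1 and DESeq2 3 on 10 samples, and 2 and 4 on 8. Of all genes, these tests called 6.3% and 10.4% on 10 samples, and 6.43% and 10.6% on 8. Among the chains that can take the place of a member, Lama4, the α4 chain of vascular laminins, came nearest. Its normalized counts were 55.9, 37.5, 72.96, 45.4 and 52.7 in Rragc +/+ replicates 1 to 5 and 152, 63.97, 85.98, 89.6 and 77.7 in the Rragc S74N/+ replicates. The difference was 0.79 ± 0.23 (log2, SE, limma adjusted p = 0.053). Lamb1, the β1 chain of immature and tubular laminins, had 0.26 ± 0.12 (SE, limma adjusted p = 0.19), Lama2 0.36 (adjusted p = 0.17) and Lama1 0.19 (adjusted p = 0.57). Nid2, the second nidogen, had 31.3 ± 7.94 against 38.9 ± 19.4 normalized counts (SD, n = 5 per group), which is 0.20 on the log2 scale (limma adjusted p = 0.73). Of the other heparan sulfate proteoglycans, Agrn, the agrin of the glomerular basement membrane, had -0.05 (adjusted p = 0.87) and Col18a1, whose product holds endostatin, 0.30 (adjusted p = 0.20).

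Genes that fold, modify and crosslink collagen IV, such as prolyl hydroxylases and peroxidasin, counted 20, and 0 of them passed (limma, 5 at an unadjusted p under 0.05), with a median fold change of -0.10. edgeR and DESeq2 on 10 samples each called 1, and on 8 they called 1 and 2. The shares of all genes under each test are those given for the list above. Receptors for basement membrane proteins counted 20, of which 2 rose and 1 fell (limma). For this list and those that follow, 3.45% of all tested genes rose and 2.58% fell. Gpc1, the heparan sulfate proteoglycan glypican-1, rose in normalized counts from 71.9 ± 13.8 to 116 ± 17.5 (SD, n = 5 per group), by 0.69 ± 0.17 (SE, limma adjusted p = 0.029). Itga2, the α2 subunit of a collagen-binding integrin, rose from 2.34 ± 2.59 to 13.8 ± 4.22 normalized counts, a value near the limit of counting in Rragc +/+ kidneys (2.41 on the log2 scale, limma adjusted p = 0.020). Sdc4, the syndecan of focal adhesions, fell from 1852 ± 294 to 1239 ± 306 normalized counts, by 0.60 on the log2 scale (limma adjusted p = 0.042). The receptor calls ran from 0 to 5 when single samples were left out, with 0 without Rragc S74N/+ replicate 5.

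Proteases and inhibitors that act on basement membranes were in the table for 15 of the 20 listed, and 2 rose and 1 fell. Ctss, a secreted elastolytic cathepsin also made by macrophages, rose in normalized counts from 179.8 ± 33.3 to 378 ± 92.2 (SD, n = 5 per group), by 1.05 ± 0.17 (SE, limma adjusted p = 0.00316). Plat, the tissue plasminogen activator, rose by 0.89 (limma adjusted p = 0.034), and Ctsb, a lysosomal cathepsin, fell by 0.39 (adjusted p = 0.035). The gelatinase Mmp2 (1.002, limma adjusted p = 0.11), the metalloproteinase inhibitor Timp1 (1.27, adjusted p = 0.11) and the meprin subunits Mep1a (0.21, adjusted p = 0.34) and Mep1b (-0.48, adjusted p = 0.54), which cleave nidogen and laminin chains, did not pass. Between 1 and 3 of the 15 passed when single samples were left out.

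The interstitial fibrillar matrix, which lies outside the basement membrane, had 4 of 17 genes higher and 0 lower (limma), with a median fold change of 0.41. Col1a1, the α1 chain of collagen I, rose in normalized counts from 180.3 ± 23.2 to 418 ± 99.7 (SD, n = 5 per group), by 1.19 ± 0.15 (SE, limma adjusted p = 0.00047). Fn1, fibronectin, rose by 1.03 (limma adjusted p = 0.00896) and Col12a1 by 1.61 (adjusted p = 0.048). In all 3, and in no other of the 17, the groups did not overlap, with Rragc S74N/+ as the higher group. Such separation was found in 4.15% of all tested genes, and these 3 were named for their large rises. For Col12a1, with means of 12.3 and 33.4 normalized counts, the gap was only from 19.898 to 19.996. A difference in fold change between these genes and the basement membrane genes was not tested. The count was 2 without the variance trend and ran from 2 to 5 with single samples left out.

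**Figure D4:**
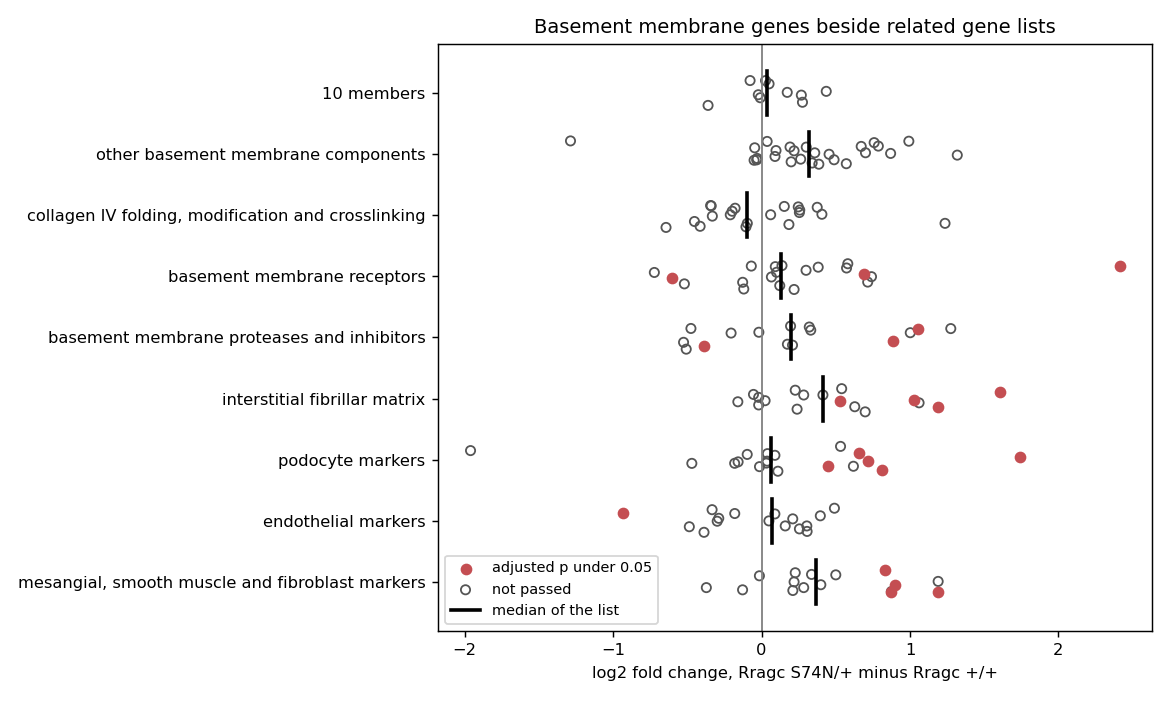
Log2 fold change (horizontal axis, Rragc S74N/+ minus Rragc +/+) of each gene of the 10 members and of 8 related lists, with filled points for genes past an adjusted p of 0.05 (limma), open points for the rest and a vertical bar for the median of each list. The members have 0 filled points and a median of 0.04, and the interstitial fibrillar matrix has 4 filled points and a median of 0.41.

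Markers of the cells that make basement membrane were read beside the members, and their part in the results was not tested. Of 18 podocyte markers 5 rose and 0 fell, with a median of 0.06 and a summed level of 2581 to 3145 normalized counts in Rragc +/+ and 2991 to 3817 in Rragc S74N/+ samples. The largest part of that sum was Npnt, with means of 822 and 852, which is also on the list of other basement membrane components. The 3 largest rises were in Plce1 (1.74), Ptpro (0.81) and Thsd7a (0.72), with limma adjusted p of 0.00896, 0.036 and 0.016. Fold changes were above 0 in 12 of the 18. Tcf21, a podocyte transcription factor named after its values were seen, had 36.3 ± 9.29 against 12.4 ± 7.47 normalized counts (SD, n = 5 per group), -1.96 on the log2 scale, with groups that did not overlap and a limma adjusted p of 0.075. Groups did not overlap in 6 of the 18 podocyte markers, beside 8.16% of all tested genes. Of 16 endothelial markers 0 rose and 1 fell, Plvap, the diaphragm protein of fenestrated peritubular capillaries, by 0.93 (limma adjusted p = 0.00879). The endothelial sum was 3115 to 3566 in Rragc +/+ and 3072 to 3884 in Rragc S74N/+ samples. Of 16 mesangial, smooth muscle and fibroblast markers 4 rose and 0 fell, among them Col1a1, Serpine2 (0.90, limma adjusted p = 0.00158) and Pdgfra (0.87, adjusted p = 0.018). Fold changes were above 0 in 13 of the 16 and below in Pdgfrb (-0.13), Acta2 (-0.37) and Ren1 (-0.01). The sum was 1735 to 2415 in Rragc +/+ and 2419 to 4439 in Rragc S74N/+ samples, so the gap between the groups was small. Single high values entered it: Tagln reached 1022 and Dcn 818 in Rragc S74N/+ samples, with means of 561 and 336.

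Tubule markers moved mostly in the distal nephron. Of 14 loop, distal and collecting duct markers 6 fell, led by Pvalb (-4.93), Slc12a3 (-1.94) and Umod (-1.55), with limma adjusted p of 9.4e-05, 1.61e-06 and 0.0013, and 1 rose, Slc26a4 (0.72, adjusted p = 0.040). Their sum was 14905 to 17582 in Rragc +/+ and 7215 to 11853 in Rragc S74N/+ samples. Umod (means of 5806 in Rragc +/+ and 2119 in Rragc S74N/+) and Slc12a3 (4056 and 1078) were large parts of that sum. It therefore says little of the other markers, and fold changes were above 0 in 7 of the 14. Of 14 proximal tubule markers 0 rose and 1 fell, Slc5a2 (-1.05, limma adjusted p = 0.000476), with sums of 138542 to 188008 and 143139 to 189818. Kap alone averaged 94161 normalized counts in Rragc +/+ and 103466 in Rragc S74N/+ samples, so these sums say little of markers at lower levels. Of 14 leukocyte markers 4 rose, the largest being Ptprc (1.20), Lyz2 (0.93) and Cd52 (0.87), with limma adjusted p of 0.00148, 0.00769 and 0.031, and their sum was 852 to 1181 in Rragc +/+ and 1325 to 1797 in Rragc S74N/+ samples. Fold changes were above 0 in 12 of the 14. Ms4a7 (-0.77, limma adjusted p = 0.095) and Cd68 (-0.34, adjusted p = 0.60) were below 0. Adgre1 (0.18, limma adjusted p = 0.79) and Itgam (0.89, adjusted p = 0.29) did not pass. Of the 16 leukocyte markers listed, Cd3g and Cd79a were not in the table. The lowest gene mean in the table was 4.37, so no gene of these 6 marker lists could be at 0 in all samples.

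The genes whose profile over the 10 samples was most like that of a member were sought among 7732 genes with a mean of at least 50 normalized counts, by the root mean square difference of their centred log2 values. For Nid1, whose own spread was 0.29, these were Ccdc47 (0.098), Dek (0.11) and Srsf11 (0.11). For Col4a1 (spread 0.18) they were Ncoa7 (0.085), Nisch (0.087) and Taf10 (0.088), and for Col4a3 (spread 0.31) Snrpd3 (0.097), Dpagt1 (0.097) and Taf2 (0.098). For Lama5 (spread 0.23) they were Ppp2r5a (0.088), Chic2 (0.11) and Sugp1 (0.12). None of these genes was on any of the 12 gene lists.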

How the data were processed

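Whole kidney RNA (300 ng per library, quality scores from 6.2 to 7 with an average of 6.7) was sequenced from the 3′ end with an oligo-dT primed, strand-specific kit. Per the labels and the methods of the study, the authors checked reads with FastQC 0.11.7, aligned them to GRCm39 with TopHat2 2.0.10, Bowtie 1.0.0 and SAMtools 0.1.19, counted sense reads per gene with HTSeq 0.6.1 and tested genes with DESeq2. The deposited values are a signal on the scale of counts, normalized by the authors with 1 size factor per sample. The lowest gene mean in the table was 4.37, so low genes had been left out by a rule not given in the sources used here.

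Genes with at least 5 normalized counts in at least 5 samples (13236; 63 removed) were fitted as log2(normalized count + 1) with limma 3.58.1 in R 4.3.3 with an eBayes variance trend and genotype as the only term. This scale understates changes of low genes. Tests were two-sided, with Benjamini-Hochberg adjustment at 0.05. Dividing by the value of 1 read gave whole numbers (within 0.01) for 100% of values in all 10 columns. These reads were tested with edgeR 4.0.16 and DESeq2 1.42.0, first on the 8 columns whose step was far enough from 1 for the whole-number test, then, as an alternative chosen after seeing the data, on all 10. edgeR called 851 and 834 genes and DESeq2 1402 and 1354. Single genes and ratios were compared by exact permutation tests over 252 allocations of the samples. Promoter letters came from RefSeq on GRCm38.p6 and served for sequence only.

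Replicates were numbered within each group by order of deposit. The study counts n as mice, so the spread is between animals, although the labels do not tie samples to animals. The text names the 10 members, chains that can replace them, Timp1, Mmp2, Mep1a and Mep1b, up to 3 rises and 3 falls past the threshold in each of 12 lists, the 3 nearest profiles of 4 members, and Rragc. The members and lists were chosen with earlier results of these data known, and no count over them is independent support.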

Additional observations from a re-analysis of the deposited data

Results flagged for a closer look

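Among 36 groups of 5 samples, from the 10 members and the 8 pair ratios in both genotypes, 0 held a sample whose gap to the nearest other exceeded Dixon's 95% critical value of 0.71 times the range of the group, where chance gives 1.8.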

How the results depend on the processing

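No paired analysis was possible because the labels carry no replicate numbers. In the members with few reads (Col4a5, Hspg2, Lamc1 and Lama5) counting alone gives a coefficient of variation of 11.6% to 13.2%, and the spread within a genotype was 12.2% to 42.5%. The cause of the changes below was not tested.

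Nid1 kept its direction under all alternatives and passed the threshold with equal library totals (0.51), equal totals without mitochondrially encoded genes (0.48), DESeq2 on 10 samples (0.44), edgeR on 8 (0.55) and DESeq2 on 8 (0.54). Under these 5 the number of members past the threshold was 1. The mean difference of Col4a1 was 136.3 normalized counts with equal library totals and passed the exact permutation test. Equal library totals gave 943 genes past the threshold, 76.1% of them higher, against 57.3% of 798, and equal totals without mitochondrially encoded genes 882 with 68.9% higher. Fold changes near 0 changed sign. With equal library totals Col4a2 was 0.0015, Col4a5 0.069 and Lama5 0.056, and the mean differences of Col4a2 and Lama5 were 1.28 and 3.997 normalized counts. Without mitochondrially encoded genes Col4a5 was 0.032 and Lama5 0.019 (1.97 normalized counts), and with equal 75th percentiles Col4a5 was 0.0089 and Lama5 differed by 1.07 normalized counts. On 10 samples edgeR gave 0.023 for Col4a5 and 0.013 for Lama5, and DESeq2 0.012 and 0.0032. Among title numbers under 200 Col4a5 was 0.15 and Lama5 0.034, and over 200 Col4a4 was -0.094, Lamb2 -0.053 and Lamc1 -0.018.

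The count over all genes was 391 without the variance trend, 1354 and 1402 with DESeq2 on 10 and 8 samples, and 46 among title numbers under 200. Other basement membrane components past the threshold numbered 1 with edgeR on 10, limma on 8 and robust eBayes, 2 with edgeR on 8 and with both scalings by totals, 3 with DESeq2 on 10 and 4 on 8. Collagen IV folding genes numbered 1 with edgeR on 10 and 8, DESeq2 on 10, equal totals, robust eBayes and title numbers over 200, and 2 with DESeq2 on 8. Receptors numbered 5 with DESeq2 on 8 and 1 without the trend and over 200. Proteases numbered 1 without the trend, and the interstitial matrix 2 there and with a pseudocount of 0.5. Podocyte markers numbered 3 without the trend, with a minimum mean of 50 and over 200. Endothelial markers numbered 3 with DESeq2 on 10 and the minimum mean of 50, and 2 with edgeR, DESeq2 and limma on 8, all 3 scalings, a pseudocount of 5, robust eBayes and over 200. Proximal tubule markers numbered 4 over 200. Under 200, 0 receptors, proteases, interstitial matrix genes and podocyte, endothelial, mesangial and leukocyte markers passed, and 4 distal markers did.

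With single samples left out, 0 members passed in each of 10 fits. The ranges were -0.022 to 0.067 for Col4a4, -0.18 to 0.17 for Col4a5, -0.15 to 0.052 for Lama5 and -0.019 to 0.12 for Lamb2 in log2 fold change. In normalized counts they were -25.4 to 82.9 for Col4a4, -5.43 to 7.00 for Col4a5, -7.64 to 3.73 for Lama5 and -4.40 to 20.2 for Lamb2. The log2 ratio ran from -0.21 to 0.14 for Col4a5/Col4a4 and from -0.029 to 0.30 for Nid1/Lamc1, from -0.44 to -0.12 for Lama5/Lamc1, 0.51 to 0.95 for Nid1/Hspg2, 0.17 to 0.32 for Col4a3/Col4a4, 0.020 to 0.17 for Col4a3/Col4a1, 0.18 to 0.30 for Col4a1/Col4a2 and -0.13 to -0.0060 for Lama5/Lamb2. The count over all genes ran from 311 (without Rragc +/+ replicate 2) to 902, with 368, 383 and 371 without Rragc +/+ replicates 1 and 4 and Rragc S74N/+ replicate 5. Counts ran from 0 to 2 for other components, 0 to 1 for folding genes, 0 to 5 for receptors, 1 to 3 for proteases, 2 to 5 for the interstitial matrix, 3 to 5 for podocyte and 1 to 2 for endothelial markers.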
